A study of Homo sapiens with 40 samples.

Results

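The genes described here are 10 core genes of the N6-methyladenosine (m6A) pathway, 10 of 19962 genes counted: METTL3, METTL14, WTAP and VIRMA, which write the mark, ALKBH5, which removes it, and YTHDF1, YTHDF2, YTHDF3, YTHDC1 and YTHDC2, which read it. They were chosen by name, as the rows whose Ensembl identifier maps to these symbols in GENCODE 29, and all 10 matched 1 row each and passed the filter on low counts. The study targeted IGF2BP2 or IGF2BP3, RNA-binding proteins that have also been reported as m6A readers. Their mRNA was lowered and not abolished, and their protein was not measured here. The question is whether this lowering in one reader family moved the writers, the eraser or the YTH readers. In GRCh38 the writer genes are METTL3 (ENSG00000165819, chr14:21498133-21511375), METTL14 (ENSG00000145388, chr4:118685368-118715433), WTAP (ENSG00000146457, chr6:159725585-159756319) and VIRMA (ENSG00000164944, chr8:94487693-94553529). The eraser is ALKBH5 (ENSG00000091542, chr17:18183078-18209954). The readers are YTHDF1 (ENSG00000149658, chr20:63195429-63216234), YTHDF2 (ENSG00000198492, chr1:28736621-28769775), YTHDF3 (ENSG00000185728, chr8:63168553-63212786), YTHDC1 (ENSG00000083896, chr4:68310387-68350089) and YTHDC2 (ENSG00000047188, chr5:113513683-113595285).

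All 40 libraries came from RKO, an established human colorectal carcinoma cell line, engineered with GFP and a doxycycline-inducible Cas9. Each of 3 derived lines carried a vector with BFP and a pair of guide RNAs driven by the human and mouse U6 promoters: sgAAVS1 (a control locus that the labels call non-coding), sgIGF2BP2 or sgIGF2BP3. The lines are sorted BFP-positive cells for which the labels name no cloning step, so edited and unedited alleles may have been measured together. There were 10 groups of 4 libraries. Cells of each line received DMSO or Dox (doxycycline at 250 ng/mL for 72 hours). Cells of the sgIGF2BP2 line also received siControl (a non-targeting siRNA) or siIGF2BP2, and those of the sgIGF2BP3 line siControl or siIGF2BP3, where the targeting pools were used at 75 nM for 48 hours. Every group, controls included, carried inducible Cas9 and guides and was given 4-thiouridine (s4U) at 250 µM for 2 hours. The labels describe quadruplicate wells, so p-values measure only the spread between wells, which may be technical.

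The m6A mark is placed on adenosines of nascent mRNA, mostly near stop codons and in 3′ UTRs, by a complex in which METTL3 is the catalytic subunit, METTL14 its RNA-binding partner, and WTAP and VIRMA scaffold and direct the pair. ALKBH5 is a nuclear demethylase. YTHDF1, YTHDF2 and YTHDF3 are cytoplasmic readers linked to translation and mRNA decay. YTHDC1 is a nuclear reader that acts in splicing and export, and YTHDC2 is an RNA helicase best known from the germline. IGF2BP proteins are described as stabilising the mRNAs that they bind. Counts of poly(A) RNA measure the mRNA of these genes, not their protein or the mark itself.

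The guides show where the 2 genes were targeted, and the closest match of each to any transcript of the 10 genes tells how far the guides are from these transcripts. These sequences come from the labels' protocols, and their positions in GRCh38 were found in GENCODE 29 transcripts. All 4 guides match the forward strand inside exons.
IGF2BP2 guide 1: atatgtgacgttgacaacgg
IGF2BP2 guide 2: gtgcgctgaggttcaaccct
IGF2BP3 guide 1: tggcaccgactgatagagct
IGF2BP3 guide 2: gaagatactttctaggtccg
The IGF2BP2 guides match exon 5 of 16 (chr3:185692722-185692741) and exon 10 (chr3:185672630-185672649). The IGF2BP3 guides match exon 11 of 15 (chr7:23319200-23319219) and exon 1 (chr7:23470045-23470064). Over every transcript of the 10 genes and both strands, the closest 20-base stretch had 6 mismatches to the IGF2BP2 guides (in VIRMA), and 7 and 6 mismatches to the IGF2BP3 guides (both in METTL3). Other genes of the 10 may tie with those named, and sequence outside annotated transcripts was not searched. The siRNA sequences were not used here.

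The mRNAs of the m6A machinery carry the core of the m6A consensus themselves. GGAC, searched on the transcript strand only, occurred 9 to 30 times in the principal transcript of each of the 10 genes. Its density ran from 2.38 per kilobase in YTHDC2 to 6.19 in ALKBH5, where the median over 11401 tested genes was 3.76 and 82.7% of genes had a lower density than ALKBH5. Of the 10 transcripts, 6 held GGAC in a 300-base window (the last 100 coding bases and the 200 bases that follow), against 68.5% of the 10097 tested genes with a full window. The stretches shown here are the GGAC nearest the end of the coding sequence in 6 of the genes whose counts changed in the comparisons below, with 10 bases on each side and GGAC in capitals, taken from GENCODE 29 transcripts on GRCh38 (the gene's own strand).
METTL3: tgagttatttGGACgaccacacaa
METTL14: tgctggccgtGGACgagaaagaaa
ALKBH5: agtcctcagaGGACtgctctgagg
YTHDF1: caaactcccgGGACacccaggagg
YTHDF2: aagagaattaGGACttttttctta
YTHDC2: gggctctgctGGACtaggaggagt
They lie at chr14:21499040-21499063 (exon 10, reverse strand), chr4:118710197-118710220 (exon 11), chr17:18208329-18208352 (exon 4), chr20:63202409-63202432 (exon 4, reverse strand), chr1:28769020-28769043 (exon 5) and chr5:113592046-113592069 (exon 28), in that order. The YTHDF2 stretch begins its GGAC 81 bases after the last coding base, in the 3′ UTR, and the other 5 lie in coding sequence, 54 (ALKBH5) to 200 (YTHDC2) bases before its end. A match is a stretch of letters and not a measured m6A site, and no m6A was measured in these libraries.

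Total counts per library ran from 10018181 to 24822807 (median 13468792), and 11428 genes were tested. The targeted genes matched the labels. IGF2BP2 was at 83.8, 84.0, 86.5 and 86.7 CPM (read counts scaled to library size with TMM factors) with DMSO and at 34.5, 33.5, 38.0 and 29.5 CPM with Dox in the sgIGF2BP2 line, and siIGF2BP2 took it from a mean of 108 to 30.2 CPM. IGF2BP3 fell from a mean of 180 to 56.2 CPM with Dox in the sgIGF2BP3 line, and from 170 to 24.7 CPM with siIGF2BP3. KRT8, KRT18, CDX2 and EPCAM were above 1 CPM among 10 colorectal epithelium markers. The others were near or at 0: CDH1, KRT19, VIL1 and LGALS4 had means of 0.0135 to 0.06 CPM, and KRT20 and CDX1 had no count. None of 6 fibroblast, 5 leukocyte or 3 endothelium markers exceeded 1 CPM. In bulk libraries such as these, fewer cells of a type and less RNA per cell cannot be told apart.

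**Figure D1:**
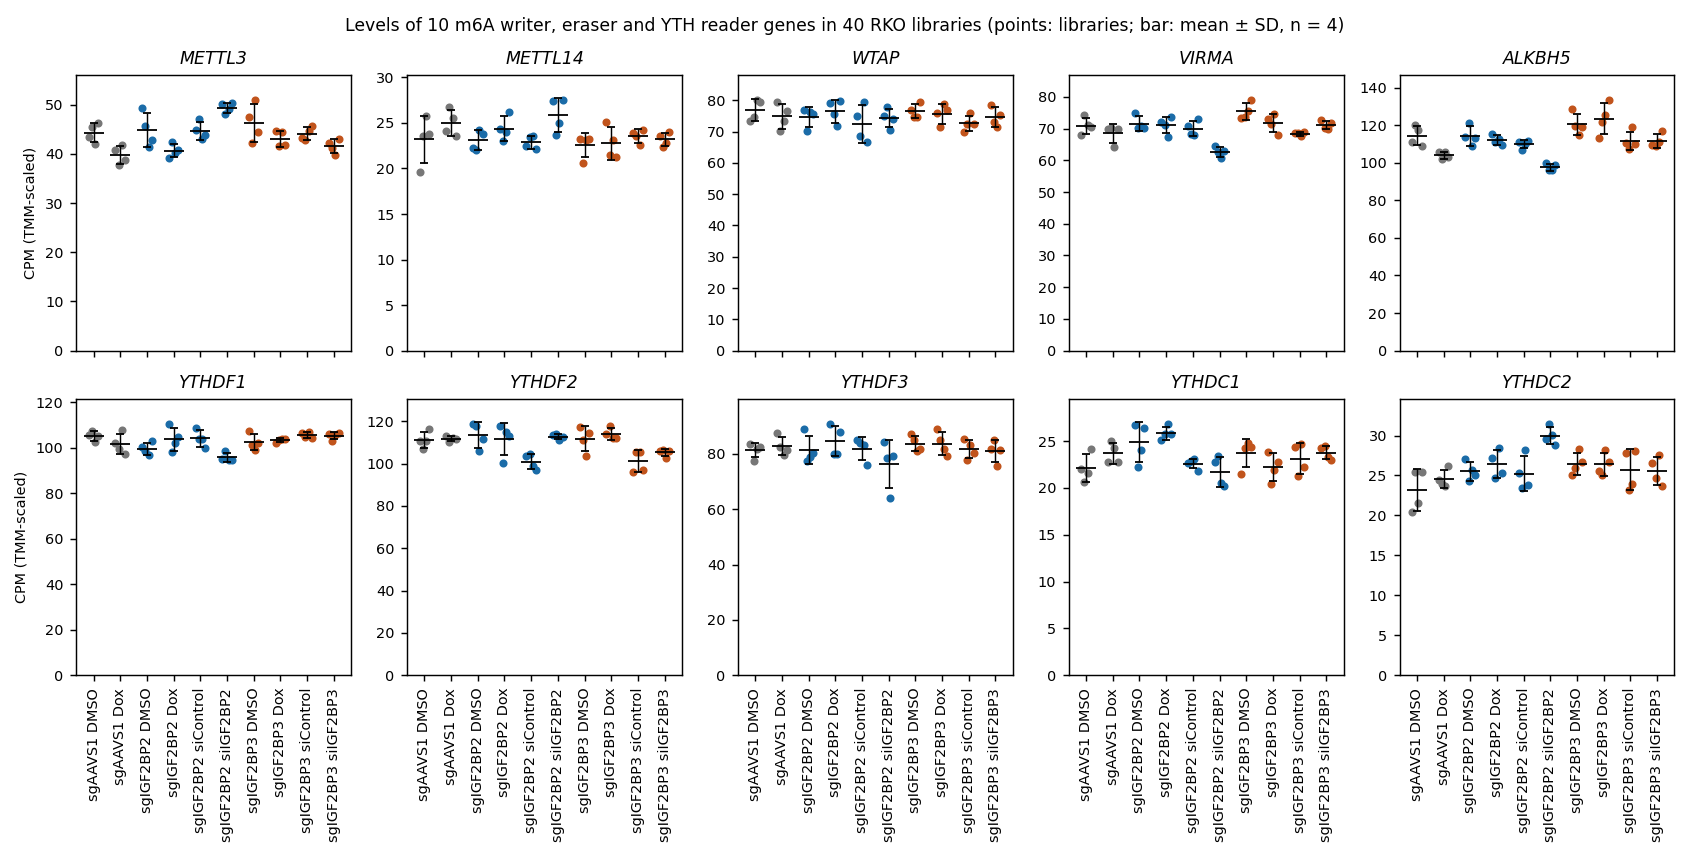
Levels of the 10 genes (CPM with TMM-scaled library sizes, axes from 0) in each of the 40 libraries by group, coloured by line (grey sgAAVS1, blue sgIGF2BP2, orange sgIGF2BP3), with mean ± SD (n = 4). No gene's highest group mean exceeded its lowest by more than 1.29-fold (YTHDC2), and the siIGF2BP2 group is the lowest or highest of the 10 in 8 of the 10 genes.

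All 10 genes were expressed in every library, with at least 239 reads (METTL14) for each gene and library. Levels between genes were compared per kilobase of exon, using the union of exons over all transcripts of a gene. For some genes this union is much longer than the principal transcript (YTHDF3 6163 against 2370 bases, METTL3 5894 against 2015). The order given here therefore depends on the length used. By union length, the eraser ALKBH5 had the highest level in every group, with group means of 30.6 to 38.7 CPM per kilobase. YTHDF1 (mean over libraries 31.1 CPM per kilobase) and YTHDF2 (28.3) followed, then YTHDF3 (13.3), WTAP (11.7), METTL3 (7.44), VIRMA (6.51), METTL14 (3.45), YTHDC1 (3.32) and YTHDC2 (2.40). The top and the bottom of this order lay at percentiles 88.6 and 28.7 of 11423 tested genes with a length. Neighbours in this order were not always apart. YTHDC1 exceeded METTL14 in the group means of the 3 groups sgIGF2BP2 DMSO, sgIGF2BP2 Dox and sgIGF2BP3 DMSO, and METTL14 was the higher in the other 7. YTHDF2 exceeded YTHDF1 in the siIGF2BP2 group alone, at 29.2 ± 0.31 (SD, n = 4) against 29.03 ± 0.60 CPM per kilobase, a gap smaller than either spread. The spread between wells was small, with a median coefficient of variation over groups of 2.37% (YTHDF1) to 6.46% (YTHDC1).

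**Figure D2:**
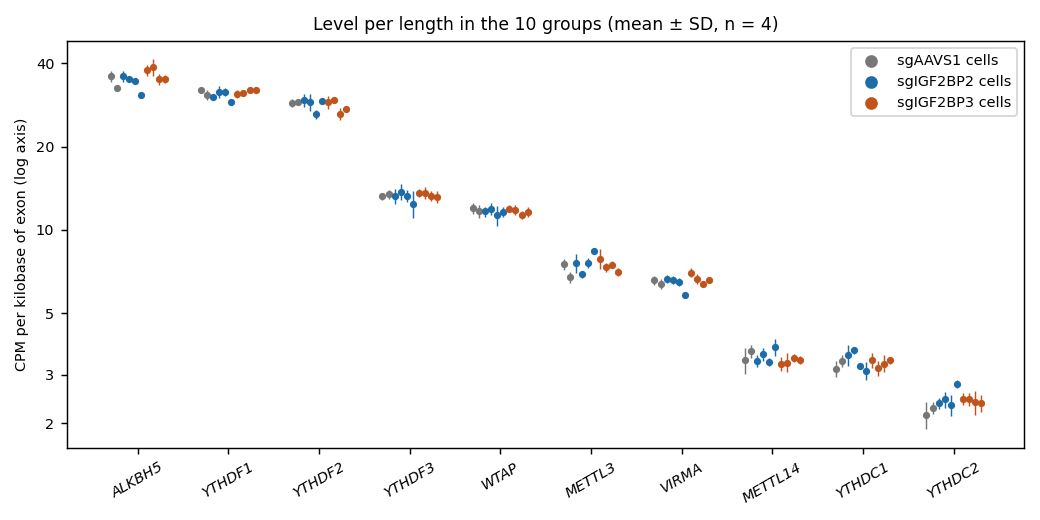
Level per kilobase of exon (union over a gene's transcripts, log axis) of each gene in the 10 groups, as mean ± SD of 4 libraries, coloured by line. ALKBH5 has the highest mean in every group and YTHDC2 the lowest, and METTL14 and YTHDC1 overlap.

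The first comparison shows what Dox, which also induces Cas9, did in the control line, without guides against a reader. The drug, Cas9 and cutting at AAVS1 cannot be told apart in this line. In the sgAAVS1 line METTL3 and ALKBH5 fell, so the writer's catalytic subunit and the eraser both moved down while the other 8 genes were not called. METTL3 was at 43.4, 45.5, 42.0 and 46.4 CPM with DMSO and at 40.8, 37.8, 41.7 and 38.7 CPM with Dox. Every Dox library was below every DMSO library, and the log2 fold change was −0.16 (SE 0.055, edgeR quasi-likelihood test with Benjamini-Hochberg adjustment over all tested genes, adjusted p = 0.036). ALKBH5 was at 111, 120, 117 and 109 CPM with DMSO and at 106, 102, 106 and 103 CPM with Dox. Here too the groups did not overlap (log2 fold change −0.14 with SE 0.042 and edgeR adjusted p = 0.0167). These are 2 of 10 genes called, both lower, where 15.9% of all tested genes were called in this comparison and 8.68% were lower, so the genes of the pathway were called about as often as any others. Of genes in general, 17.5% had groups that did not overlap. Without DMSO replicate 2 or without Dox replicate 2 neither call held. The METTL3 call was also lost without DMSO replicate 4 or Dox replicate 4 and with no filter on low counts, and the ALKBH5 call without DMSO replicate 3.

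Dox in the sgIGF2BP2 line gave no called change in any of the 10 genes. As in the control line, the drug, Cas9 and cutting cannot be told apart within this comparison. By edgeR's quasi-likelihood test 0 of 10 passed, 1 (METTL3) had an unadjusted p under 0.05, and DESeq2 called 0, where 20.4% of all tested genes were called. The DMSO and Dox groups overlapped in every one of the 10 genes, and did not overlap in 18% of all tested genes. METTL3 was at 49.2, 45.7, 41.4 and 42.8 CPM with DMSO and at 39.2, 42.4, 40.2 and 40.8 CPM with Dox, in groups that overlap (log2 fold change −0.13, 95% interval −0.23 to −0.02, edgeR adjusted p = 0.0903). It passed without DMSO replicate 3 (log2 fold change −0.17, edgeR adjusted p = 0.0339). The intervals of the 10 genes lay between −0.23 (METTL3) and 0.20 (METTL14), so a change of more than 1.18-fold in either direction is outside all of them. Of the YTHDF readers, none of them called, YTHDF1 had means of 104 with Dox and 99.7 CPM with DMSO, YTHDF2 of 112 and 114 CPM, and YTHDF3 of 84.7 and 81.5 CPM. A p-value that misses the threshold does not show that a gene was unchanged, and the intervals give the sizes that the 4 wells a group leave possible.

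Dox in the sgIGF2BP3 line likewise gave 0 calls among the 10 genes by edgeR's quasi-likelihood test and 0 by DESeq2. At an unadjusted p under 0.05 there were 0, where 2.64% of all tested genes were called. The groups overlapped in all 10 genes, and did not in 10.4% of all tested genes. The 95% intervals of the 10 genes lay between −0.23 (YTHDC1) and 0.15 (METTL14). The median size of change over the 10 genes was 0.02 on the log2 scale, against 0.07 over all tested genes. ALKBH5, which fell in the sgAAVS1 line, had means of 124 CPM with Dox and 120 CPM with DMSO (log2 fold change 0.04, 95% interval −0.04 to 0.12). METTL3, which fell there too, had means of 43.1 CPM with Dox and 46.3 CPM with DMSO (log2 fold change −0.10, 95% interval −0.21 to 0.004).

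The Dox effects were then compared between lines, which sets the guides against IGF2BP genes beside the same drug and guides against AAVS1. The comparisons with the sgAAVS1 line share its 8 libraries. Between the sgIGF2BP2 and sgAAVS1 lines 0 of 10 genes differed by edgeR's quasi-likelihood test (6.97% of all tested genes did), with 1 (YTHDF1) at an unadjusted p under 0.05 and 0 by DESeq2. Between the sgIGF2BP3 and sgAAVS1 lines 1 of 10 did (7.78% of all tested genes): ALKBH5, with a difference of 0.17 on the log2 scale (SE 0.058, edgeR adjusted p = 0.0499). That call was lost in 17 of 23 alternatives, among them 12 of the 16 fits that left out 1 library, with edgeR adjusted p up to 0.223 (with offsets for GC content and length). Between the sgIGF2BP3 and sgIGF2BP2 lines 0 of 10 genes differed by edgeR's quasi-likelihood test (2.91% of all tested genes did), 0 had an unadjusted p under 0.05, and DESeq2 called 0. Without Dox, the 3 lines with DMSO, and the sgIGF2BP2 and sgIGF2BP3 lines with siControl, differed in 0 of 10 genes in each of 4 comparisons by edgeR's quasi-likelihood test and by DESeq2. In each, edgeR called 0.0175% of all tested genes. At an unadjusted p under 0.05 the counts were 2 in both comparisons with the sgAAVS1 line and 0 in the other 2. The lines overlapped in all 10 genes in each of the 4, where 2.97%, 5.93%, 4.09% and 4.18% of all tested genes did not (sgIGF2BP2 and sgIGF2BP3 against sgAAVS1, then sgIGF2BP3 against sgIGF2BP2 with DMSO and with siControl).

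Of the 5 comparisons of Dox or siRNA with its control, siIGF2BP2 had the most m6A genes called. METTL3, METTL14, YTHDF2 and YTHDC2 rose, VIRMA, ALKBH5 and YTHDF1 fell, and WTAP, YTHDF3 and YTHDC1 were not called. None changed by more than 1.19-fold. These are 7 of 10 genes called by edgeR's quasi-likelihood test, and the siControl and siIGF2BP2 groups of the same 7 did not overlap. Over all tested genes 36.8% were called (18.4% higher and 18.4% lower) and 30.6% did not overlap. The median size of change was 0.15 on the log2 scale for the 10 genes and 0.13 for all tested genes, so the m6A genes moved by about as much as the median gene of these libraries. The epithelial keratins moved in this comparison too, KRT8 up from 44.9 to 65.6 CPM and KRT18 down from 170 to 120.4 CPM, and their part in the result was not tested.

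Among the writers, the catalytic pair rose while a scaffold fell. METTL3 was at 44.8, 47.1, 43.0 and 43.8 CPM with siControl and at 50.1, 48.0, 49.2 and 50.3 CPM with siIGF2BP2. All 4 knockdown libraries lay above all 4 controls (log2 fold change 0.14 with SE 0.052 and edgeR adjusted p = 0.0242). METTL14 was at 22.4, 23.4, 23.6 and 22.1 CPM with siControl and at 27.4, 23.7, 24.99 and 27.6 CPM with siIGF2BP2, where replicate 2 of the knockdown lay just above the highest control (log2 fold change 0.18 with SE 0.067 and edgeR adjusted p = 0.0282). Both calls are near the threshold: each was lost in 5 of 15 alternatives, METTL3 with no filter on low counts and without siControl replicate 3 or 4 or siIGF2BP2 replicate 1 or 4, and METTL14 with no filter and without siControl replicate 1 or 4 or siIGF2BP2 replicate 1 or 4.

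VIRMA, the largest scaffold of the complex, was at 70.8, 68.2, 67.9 and 73.1 CPM with siControl and at 64.6, 62.6, 60.7 and 63.0 CPM with siIGF2BP2. The knockdown libraries were all lower (log2 fold change −0.16 with SE 0.042 and edgeR adjusted p = 0.0018), and the call held in all 15 alternatives. WTAP, the adaptor that binds the METTL3 and METTL14 pair, had means of 74.4 with siIGF2BP2 and 72.4 CPM with siControl (log2 fold change 0.04, 95% interval −0.06 to 0.13). METTL3 shares 388 exon bases with TOX4 and WTAP shares 298 with SOD2, and ALKBH5 shares 357 with AC087164.1, each on the opposite strand. The targeted gene IGF2BP3 shares 1521 with MALSU1, also on the opposite strand. The libraries were made with a directional kit, but whether the counting used strand is not given in the sources used here. A part of the counts of these genes may therefore belong to the neighbour.

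The eraser fell as VIRMA did. ALKBH5 was at 111, 107, 110 and 112 CPM with siControl and at 99.8, 95.9, 96.1 and 98.7 CPM with siIGF2BP2. The groups were well apart, by more than the range of either (log2 fold change −0.17 with SE 0.042 and edgeR adjusted p = 0.00071), and the call held in all 15 alternatives.

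The cytoplasmic readers went in different directions. YTHDF2, the reader best known for speeding mRNA decay, was at 103, 105, 98.9 and 96.8 CPM with siControl and at 113, 114, 111 and 113 CPM with siIGF2BP2. The siIGF2BP2 libraries were close together and all above the controls (log2 fold change 0.16 with SE 0.042 and edgeR adjusted p = 0.00191). YTHDF1, its paralog linked to translation, was at 109, 104, 104 and 100.1 CPM with siControl and at 95.3, 98.8, 94.7 and 94.6 CPM with siIGF2BP2. It was lower in every knockdown library (log2 fold change −0.12 with SE 0.038 and edgeR adjusted p = 0.00728), a call lost only without siControl replicate 1 (adjusted p = 0.0526). YTHDF3 was at 84.9, 83.8, 83.2 and 76.0 CPM with siControl and at 84.2, 78.5, 64.1 and 79.2 CPM with siIGF2BP2, with overlap and 1 knockdown library far below the rest (log2 fold change −0.10, 95% interval −0.21 to 0.00, edgeR adjusted p = 0.112). YTHDF3 passed without siControl replicate 4 (adjusted p = 0.0442) or siIGF2BP2 replicate 1 (adjusted p = 0.0261).

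Per length, the make-up of the YTHDF trio shifted accordingly. YTHDF2 held 36.8% ± 0.59 (SD, n = 4) of the summed CPM per kilobase of YTHDF1, YTHDF2 and YTHDF3 with siControl and 41.4% ± 0.74 with siIGF2BP2, while YTHDF1 went from 44.4% ± 0.58 to 41.1% ± 0.95. The sum itself was 71.0 ± 2.49 and 70.7 ± 1.96 CPM per kilobase. With DMSO in the same line the shares were 40.4% ± 1.14 for YTHDF2 and 41.5% ± 1.12 for YTHDF1, close to those with siIGF2BP2. These shares are a description and were not tested, since their parts are the counts tested above. They rest on union exon lengths, which for YTHDF3 is 6163 bases against 2370 in its principal transcript. Which paralog holds the larger share therefore depends on the length used.

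**Figure D3:**
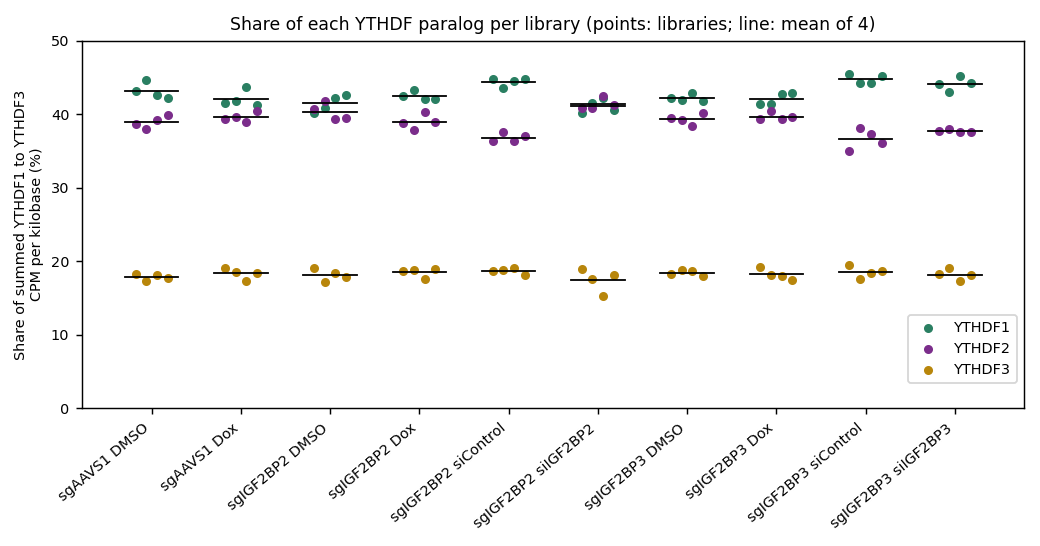
Share of each YTHDF paralog in the summed CPM per kilobase of the trio (%), for each library by group, with the mean of 4 as a line. The YTHDF2 share is lowest in the siControl groups (36.8% and 36.7%). With the union exon lengths used, YTHDF1 and YTHDF2 meet in the siIGF2BP2 group.

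Among the YTHDC readers, YTHDC2 showed the largest change of the 10 genes. It was at 25.4, 23.4, 28.2 and 23.8 CPM with siControl and at 29.5, 31.4, 30.1 and 28.9 CPM with siIGF2BP2. The lowest knockdown library was just above the highest control (log2 fold change 0.25 with SE 0.068 and edgeR adjusted p = 0.00259), and the call held in all 15 alternatives. YTHDC1 had means of 21.7 with siIGF2BP2 and 22.6 CPM with siControl (log2 fold change −0.06, 95% interval −0.20 to 0.07).

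**Figure D4:**
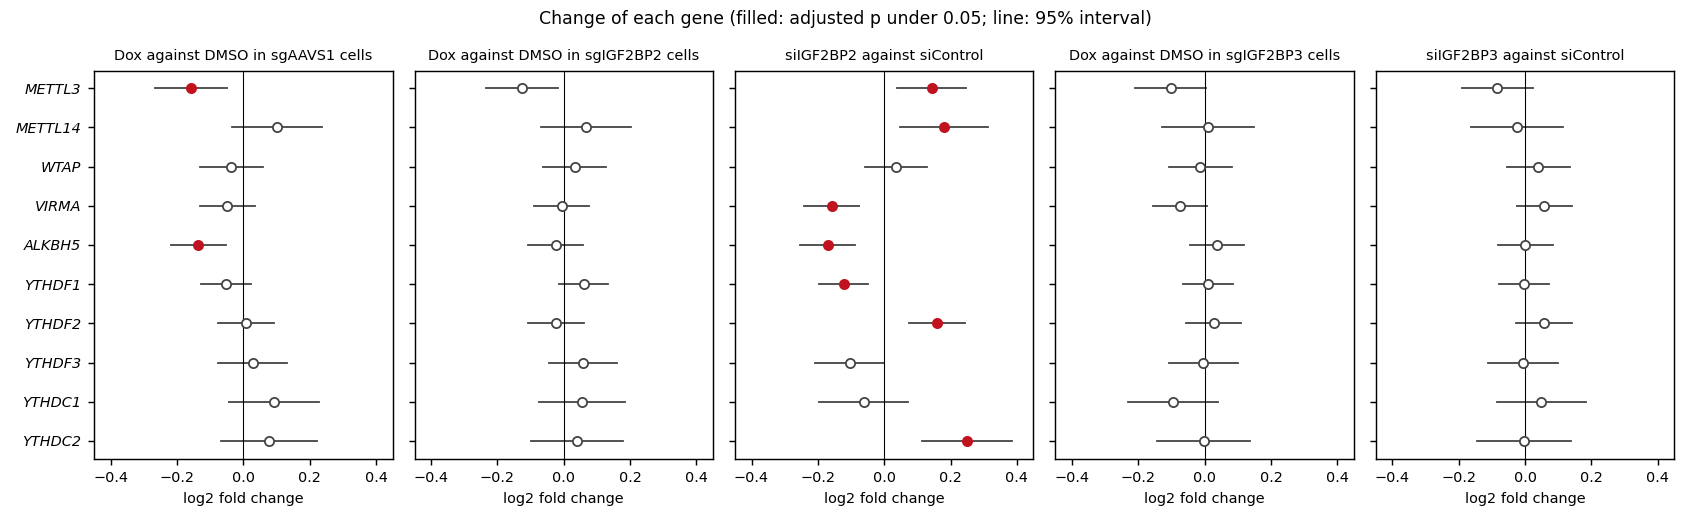
Log2 fold change of each gene with its 95% interval in the 5 comparisons of Dox or siRNA with its control. Filled points passed an adjusted p under 0.05: METTL3 and ALKBH5 in the sgAAVS1 line, 7 genes with siIGF2BP2, and none in the other 3 comparisons.

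The control groups matter for these values, because siControl itself differed from DMSO. In the sgIGF2BP2 line YTHDF2 was at 119, 118, 106 and 112 CPM with DMSO, above all 4 siControl libraries (20.3% of all tested genes did not overlap), and 1 of 10 genes was called (YTHDF2, log2 fold change of siControl against DMSO −0.16, SE 0.042, edgeR adjusted p = 0.00325), where 18.4% of all tested genes were. In the sgIGF2BP3 line 3 of 10 were called, all lower with siControl (19.4% of all tested genes were called, and 8.54% were lower): YTHDF2 (log2 fold change −0.14, edgeR adjusted p = 0.0105), VIRMA (−0.14, adjusted p = 0.0101) and ALKBH5 (−0.11, adjusted p = 0.0452). Leaving out 1 library ended the VIRMA call without DMSO replicate 4, the YTHDF2 call without DMSO replicate 1 or siControl replicate 1 or 4, and the ALKBH5 call without DMSO replicate 1, 2 or 4 or siControl replicate 1, 2 or 4. YTHDF2 was thus lower with siControl than with DMSO in both lines, and its level with siIGF2BP2 (mean 113 CPM) was near that with DMSO (mean 114 CPM). IGF2BP2 itself was higher with siControl than with DMSO in both lines, by 0.34 and 0.28 on the log2 scale (edgeR adjusted p = 4.49e-09 and 6.46e-07).

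Set against DMSO in place of siControl, a comparison added after the data were seen, siIGF2BP2 libraries had 6 of 10 genes called by edgeR's quasi-likelihood test (44.5% of all tested genes), 3 higher and 3 lower (22.6% and 21.9%). The groups did not overlap in VIRMA, ALKBH5 and YTHDC2, where 34.6% of all tested genes did not. METTL3 (0.15), METTL14 (0.16) and YTHDC2 (0.23) were again higher, and VIRMA (−0.19) and ALKBH5 (−0.22) again lower, as log2 fold changes. YTHDC1 was called as well (−0.20, adjusted p = 0.0128). YTHDF2 was not called (0.00, 95% interval −0.09 to 0.08), nor was YTHDF1 (−0.06, 95% interval −0.13 to 0.02). The METTL14 call was lost in 9 of 15 alternatives (edgeR or DESeq2 adjusted p up to 0.178), the METTL3 call without DMSO replicate 3 or 4, and the YTHDC1 call without DMSO replicate 1 or 4 or siIGF2BP2 replicate 4. Both comparisons use the same 4 siIGF2BP2 libraries, so they are not independent, and against DMSO the siRNA and its transfection cannot be told apart. The changes of METTL3, METTL14, VIRMA, ALKBH5 and YTHDC2 passed against both controls.

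The siIGF2BP3 pool moved none of the 10 genes past the threshold, with IGF2BP3 itself at a log2 fold change of −2.78. By edgeR's quasi-likelihood test 0 of 10 were called, 0 had an unadjusted p under 0.05 and DESeq2 called 0, where 2.34% of all tested genes were called. VIRMA was at 68.5, 68.6, 67.5 and 68.9 CPM with siControl and at 72.8, 70.3, 70.0 and 71.8 CPM with siIGF2BP3. It was the only 1 of the 10 genes whose groups did not overlap (9.96% of all tested genes did not), in the direction opposite to siIGF2BP2 (log2 fold change 0.06, 95% interval −0.03 to 0.14, edgeR adjusted p = 0.595). YTHDF2 had means of 105 with siIGF2BP3 and 101 CPM with siControl (log2 fold change 0.06, 95% interval −0.03 to 0.14). The intervals of the 10 genes lay between −0.19 (METTL3) and 0.18 (YTHDC1), so a change of more than 1.14-fold is outside all of them. Against DMSO, METTL3 (−0.15, adjusted p = 0.0272) and ALKBH5 (−0.11, adjusted p = 0.0374) were lower, 2 of 10 genes where 23% of all tested genes were called (10.6% lower), and neither was called against siControl. The groups of both genes overlapped. VIRMA was the 1 gene of the 10 whose groups did not (25.7% of all tested genes). The METTL3 and ALKBH5 calls were each lost in 6 of 15 alternatives, both of them without DMSO replicate 1 (METTL3 adjusted p = 0.0783, ALKBH5 adjusted p = 0.212, edgeR).

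The 2 knockdowns differed in 3 of the 10 genes when the difference itself was tested, where 18.7% of all tested genes differed (9.88% with a higher value after siIGF2BP3). Each pool was used in 1 line only, so pool and line cannot be told apart in this comparison. As siIGF2BP3 effect minus siIGF2BP2 effect, METTL3 was at −0.23 (SE 0.075, edgeR adjusted p = 0.0244), VIRMA at 0.22 (SE 0.059, adjusted p = 0.00545) and ALKBH5 at 0.17 (SE 0.059, adjusted p = 0.0309) on the log2 scale. METTL3 rose with siIGF2BP2, while its log2 fold change with siIGF2BP3 was −0.08 (95% interval −0.19 to 0.02). YTHDC2 had the largest difference, −0.25, but did not pass (95% interval −0.45 to −0.05, edgeR adjusted p = 0.0639), although it did in 6 of 23 alternatives. YTHDF2 differed by −0.10 (95% interval −0.22 to 0.02), so its effects under the 2 pools are not shown to differ. The METTL3 difference was lost in 3 and the ALKBH5 difference in 6 of 23 alternatives, each of which left out 1 library. Both were lost without sgIGF2BP3 siControl replicate 4.

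The siIGF2BP2 and Dox effects in the sgIGF2BP2 line were also set against each other, a test added after the data were seen. The siRNA acted for 48 hours and Dox for 72 hours. The siIGF2BP2 effect minus the Dox effect passed in 4 of 10 genes by edgeR's quasi-likelihood test, where 26.1% of all tested genes differed (12.4% higher and 13.7% lower). METTL3 differed by 0.27 (SE 0.075, adjusted p = 0.00436), from log2 fold changes of −0.13 with Dox and 0.14 with siIGF2BP2. With Dox METTL3 also fell in the sgAAVS1 line (−0.16). Its Dox effect in sgIGF2BP2 minus sgAAVS1 cells was not called and lay between −0.01 and 0.08 over 23 alternatives. How much of the 0.27 is shared with the control guides was not tested. YTHDF2 differed by 0.18 (adjusted p = 0.0167), YTHDF1 by −0.18 (adjusted p = 0.00684) and VIRMA by −0.15 (adjusted p = 0.0457). The VIRMA difference was lost in 14 of 23 alternatives, and the YTHDF2 difference without Dox replicate 2 (adjusted p = 0.0921). ALKBH5 (−0.15, adjusted p = 0.0555), YTHDC2 (0.21, adjusted p = 0.107) and YTHDF3 (−0.16, adjusted p = 0.0987) did not pass. They did in 6, 1 and 4 of 23 alternatives, ALKBH5 with the GC and length offset among them (−0.17, adjusted p = 0.0089). IGF2BP2 mRNA was left at a mean of 33.9 CPM with Dox and 30.2 CPM with siIGF2BP2, from different control levels. For IGF2BP3 the same test passed in 0 of 10 genes by edgeR and 0 by DESeq2, with 1 (VIRMA) at an unadjusted p under 0.05, where 1.36% of all tested genes differed.

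The rest of the pathway was described with 37 other genes, of which 35 were tested (IGF2BP1 and MEIOC had too few counts). They comprise other writer subunits, other RNA methyltransferases, the eraser FTO, other reported readers, partners of YTH proteins and the enzymes that supply S-adenosylmethionine (SAM), the methyl donor. Of the 35, siIGF2BP2 raised 2 and lowered 10, where 36.8% of all tested genes were called, 18.4% in each direction. Their median log2 fold change was −0.02 against 0.01 over all tested genes. LRPPRC, a mitochondrial RNA-binding protein also reported as an m6A reader, fell from 293 to 206 CPM (log2 fold change −0.51 with SE 0.033 and edgeR adjusted p = 3.06e-21). ELAVL1 (HuR), a stabilising RNA-binding protein, fell by 0.25, the translation factor subunit EIF3A by 0.20, and the writer subunit RBM15B by 0.18 on the log2 scale. The methyltransferase METTL16 fell by 0.15 and the splicing factor SRSF10, a partner of YTHDC1, by 0.19 on the log2 scale. PCIF1, which methylates the cap-adjacent adenosine, rose by 0.21 and the SAM synthetase MAT2A by 0.12. LRPPRC was not called with Dox in the same line (log2 fold change 0.03, 95% interval −0.03 to 0.10), and the difference of the effects was −0.54 (edgeR adjusted p = 1.99e-15).

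In the same 35 genes siIGF2BP3 raised 1 and lowered 1, where 2.34% of all tested genes were called (median log2 fold change −0.03 against 0.00). MAT2B, the regulatory subunit of the SAM synthetase, fell from 62.9 to 31.7 CPM with no overlap (log2 fold change −0.98 with SE 0.053 and edgeR adjusted p = 3.16e-24), the largest change of any listed pathway gene other than the targets in the 5 comparisons of Dox or siRNA with its control. With Dox in the sgIGF2BP3 line it was at 68.2 against 70.2 CPM (log2 fold change −0.04, 95% interval −0.14 to 0.05), and the knockdown effect minus the Dox effect was −0.94 (edgeR adjusted p = 1.28e-16). RBM15B rose from 128 to 145 CPM with siIGF2BP3 (log2 fold change 0.19, adjusted p = 0.000486), the opposite of its fall with siIGF2BP2.

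With Dox the same 35 genes gave 1 higher and 7 lower in the sgAAVS1 line, 2 and 7 in the sgIGF2BP2 line, and 0 and 1 in the sgIGF2BP3 line. Of all tested genes, 15.9%, 20.4% and 2.64% were called in either direction. In the sgAAVS1 line 8.68% of all tested genes were lower, and the shares by direction in the other lines are not given here. In the sgIGF2BP2 line the falls included the nuclear reader HNRNPA2B1 (1484 to 1270.0 CPM, log2 fold change −0.22, edgeR adjusted p = 2.22e-08), RBMX (−0.16) and FMR1 (−0.16). Set against the Dox effect in the sgAAVS1 line, 1 of the 35 was higher and 1 lower, where 6.97% of all tested genes differed. At most 1 of these falls was therefore called as different from the Dox effect with control guides. The other targeted reader, IGF2BP3, which is not among the 35, also fell with Dox in the sgIGF2BP2 line. It went from 179 to 151 CPM with no overlap (log2 fold change −0.25, edgeR adjusted p = 2.93e-06), so this Dox comparison does not lower IGF2BP2 alone. Its Dox effect differed from that in the sgAAVS1 line by −0.29 (edgeR adjusted p = 0.000373). In the sgIGF2BP3 line CNOT7, a deadenylase of the CCR4-NOT complex that YTHDF2 recruits, was the 1 gene called (−0.15, adjusted p = 0.0389). In the sgAAVS1 line PCIF1 (−0.24) and AHCY (−0.18), which clears the product of methylation, were lower. AHCY was higher with Dox in the sgIGF2BP2 line (0.14, adjusted p = 0.00183), and that effect differed from the one in the sgAAVS1 line by 0.32 (edgeR adjusted p = 6.03e-06). FTO was called in none of these 5 comparisons.

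Over the 40 libraries, the 10 genes did not vary as a block. Among the pairs, Pearson's r of log2 CPM was highest for VIRMA and ALKBH5 (0.63) and lowest for METTL14 and ALKBH5 (−0.54). By the same measure, the 2 tested genes most like METTL3 were DDX5 (0.80) and PRTFDC1 (0.76), those most like METTL14 KIAA0753 (0.68) and DZIP3 (0.67), those most like WTAP ZNF260 (0.65) and ENKUR (0.61), and those most like VIRMA ABCD3 (0.80) and BZW1 (0.80). The eraser ALKBH5 was most like the cytoskeletal genes ACTG1 (0.87) and MYH9 (0.84). Among the readers, YTHDF1 was most like AGO2 (0.71) and ATP7B (0.70), YTHDF2 like HKR1 (0.73) and CD274 (0.72), YTHDF3 like SMG1 (0.80) and KBTBD8 (0.76), YTHDC1 like UAP1 (0.63) and ZNF630 (0.62), and YTHDC2 like GATAD1 (0.68) and HINT2 (0.67). No gene is shared between these pairs. These are descriptions over 40 libraries that share groups and depth, chosen from 11427 genes each.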

How the data were processed

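Counts were deposited by the authors as 1 table of unnormalized whole-number reads per gene for 40 libraries, with no other count column. Per the submitters' processing notes, bcl2fastq 2.20.0.422 and STAR 2.7.5c were used with build hg38. The counting tool, its annotation and its strand setting are not given in the sources used here. No split of reads by s4U conversion was used here. Of the 19962 identifiers, 19847 were named from GENCODE 29.

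edgeR 4.0.16 (R 4.3.3) fitted all 40 libraries with a coefficient per group (TMM scaling, filterByExpr by group, quasi-likelihood test). It adjusted p-values by Benjamini-Hochberg over 11428 tested genes (99.98% of counts), with a gene called at an adjusted p under 0.05. The common biological coefficient of variation was 3.79%. Replicate libraries differed by more than sampling noise (chi-square per gene 1.49 to 16.6), and none was counted as a duplicate. There were 15 comparisons planned and 4 added after the data were seen. DESeq2 1.42.0, RLE scaling, no filter, fits on the groups compared, GC and length offsets, a replicate block and leaving out each library were alternatives. The procedure was tested on simulated counts. Named genes were all 10 members, up to 3 called genes with the largest changes per comparison and pathway list, and the 2 genes most like each member. The members and lists were chosen with earlier results of these data known. Exon lengths and transcripts came from GENCODE 29 and may differ from the authors' annotation. Processed pseudogenes exist for WTAP, YTHDF1 and YTHDF2, so reads shared with them may have been split or dropped.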

Additional observations from a re-analysis of the deposited data

Results flagged for a closer look

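Among 160 sets of 4 libraries (the 10 genes, IGF2BP2, IGF2BP3, the 3 YTHDF shares and the METTL3 to METTL14 ratio, in 10 groups), 5 held 1 library far from the other 3, where chance gives about 1 in 20. METTL14 was at 20.6 CPM in replicate 2 of sgIGF2BP3 DMSO, where the others were at 23.2. WTAP was at 70.1 CPM in replicate 2 of sgIGF2BP2 DMSO, against 75.8 to 76.9 in the others. VIRMA was at 64.2 CPM in replicate 3 of sgAAVS1 Dox, against 69.8 to 70.1, and at 75.0 CPM in replicate 1 of sgIGF2BP2 DMSO, against 70.1 to 70.7. YTHDC1 was at 21.5 CPM in replicate 1 of sgIGF2BP3 DMSO, against 24.3 to 24.8.

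In 8 of 60 tests of a member's effect in one setting against another, the difference passed by edgeR's quasi-likelihood test. Of all tested genes, 18.7%, 7.78% and 26.1% differed in the 3 comparisons that hold these 8, in the order given here. Between the siIGF2BP3 and siIGF2BP2 effects these were METTL3 (−0.23), VIRMA (0.22) and ALKBH5 (0.17), on the log2 scale. Between the Dox effects in the sgIGF2BP3 and sgAAVS1 lines it was ALKBH5 (0.17). Between siIGF2BP2 and Dox in the sgIGF2BP2 line they were METTL3 (0.27), VIRMA (−0.15), YTHDF1 (−0.18) and YTHDF2 (0.18). Several of these tests share libraries and are not independent.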

How the results depend on the processing

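No called change of a member changed sign. Members not called did in 230 of 3330 values, over 74 of 190 results, none of them called under the alternative either and none above 0.0918 in size on the log2 scale as reported. No scaling moved the median of all genes past 0.1, but these methods set the typical gene near 0 by design, so this is no check of the scaling. With no filter, members called with Dox in sgAAVS1 cells went from 2 to 1, and all genes called from 2 to 4 (sgIGF2BP2 against sgAAVS1 with DMSO), from 2 to 35 (sgIGF2BP3 against sgAAVS1 with DMSO) and from 2 to 13 (the siControl groups). For the Dox effect in sgIGF2BP3 minus sgAAVS1 cells, where ALKBH5 is the member called, the 1 member called became 0 with RLE scaling, no filter, only the groups compared, and the GC and length offset with or without the replicate block. With that offset the difference between siRNA effects had 5 members called in place of 3 (also with the replicate block), YTHDF1 and YTHDC2 being added, and siIGF2BP3 against DMSO had 1 in place of 2 (also with the block). All genes called with this offset, without and with the replicate block, were 426 and 470 for siIGF2BP3 (267 reported), 382 and 439 for sgIGF2BP3 minus sgAAVS1 (889), 596 and 647 for sgIGF2BP3 minus sgIGF2BP2 (333), and 236 and 265 for siIGF2BP3 minus Dox (155). With only the groups compared they were 477 for Dox in sgIGF2BP3 cells (302), 465 for siIGF2BP3, 284 for siIGF2BP3 minus Dox, and 4 for both sgIGF2BP3 against sgAAVS1 with DMSO and the siControl groups. DESeq2 called 5 genes for sgIGF2BP3 against sgAAVS1 with DMSO. The cause of these shifts was not tested.

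Leaving out 1 library gave 0 to 2 members called for Dox in sgAAVS1 cells, 0 to 1 for Dox in sgIGF2BP2 cells (1 without DMSO replicate 3), 5 to 7 for siIGF2BP2, 0 to 1 for sgIGF2BP3 minus sgAAVS1, 1 to 4 for the siRNA difference (1 without sgIGF2BP3 siControl replicate 4), 1 to 3 for siControl against DMSO in sgIGF2BP3 cells (1 without DMSO replicate 1), 3 to 6 for siIGF2BP2 minus Dox, 3 to 6 for siIGF2BP2 against DMSO (3 without DMSO replicate 4) and 0 to 2 for siIGF2BP3 against DMSO (0 without DMSO replicate 1). All genes called were 108 to 285 for Dox in sgIGF2BP3 cells (108 without Dox replicate 4), 428 to 1415 for sgIGF2BP3 minus sgAAVS1 (428 without replicate 4 of sgIGF2BP3 Dox and 1415 without replicate 4 of sgAAVS1 DMSO), 1 to 2 for sgIGF2BP2 against sgAAVS1 with DMSO, 1 to 74 for sgIGF2BP3 against sgAAVS1 with DMSO (74 without sgAAVS1 DMSO replicate 4), 0 to 2 for the 2 targeted lines with DMSO and 0 to 6 for their siControl groups.

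The wells were not treated as paired, because same-numbered wells' deviations correlated at −0.15 to 0.11 (mean 0.01). Of 40 libraries, 19 correlated best with their own number, where unrelated numbers would give about 10, a hint from the data and not from the design. With the replicate block, 0 calls of a member were lost and 0 gained, and all genes called were 6 for sgIGF2BP3 against sgAAVS1 with DMSO and 5 for the siControl groups, which became 6 with the GC and length offset as well. Depth limits the low genes most, since METTL14, YTHDC1 and YTHDC2 had 239 to 631 reads a library and their intervals are the widest.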
